A study of Mus musculus with 8 samples.

Results

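Activated mouse hepatic stellate cells given miR-15a were set against quiescent stellate cells across every gene of the deposited table. The comparison takes the 2 libraries named for activated cells with miR-15a and the 2 named for quiescent cells, 4 of the 8 libraries of the series. All 14162 genes of the table were kept and 13150 were tested. The other 4 libraries, activated cells alone and activated cells with a control microRNA, were used for the spread between libraries and for tests of where the miR-15a cells differ from activated cells. The study asked which genes miR-15a may target in activated stellate cells.

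RNA of wild-type C57BL/6J and of immunodeficient SCID mice may be among the libraries, since the labels name both strains without saying which library came from which. No age, sex, culture time, dose or form of the microRNA is given, and the quiescent and activated groups are named only by cell status. Replicates are lettered a and b with no word on their origin in animals or dishes. Each p-value therefore reflects only how far libraries scatter within groups, pooled over all 8 libraries, and that scatter may be technical. A gene that scatters in the activated or control libraries can thus lack a call although the compared libraries are close. The values are normalized scores and the sequencing depth is unknown. All values per library below are these scores.

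Hepatic stellate cells sit between liver sinusoidal endothelium and hepatocytes and store vitamin A in lipid droplets. On liver injury they lose the droplets, divide, build contractile fibres and lay down fibrillar collagen, which makes them the main source of liver scar. MicroRNAs pair through a seed near their 5′ end with sites in messenger RNAs and lower the output of those messengers, and the miR-15 family is known for cyclin and BCL2 targets.

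The mature miR-15a and the relatives that share its seed are shown because the sites printed further below were searched with that seed. It spans bases 2 to 8 and is in capitals (RefSeq, GRCm38.p6). The list of known target genes was not filtered by it. miR-15a comes from chr14:61632075-61632096 on the minus strand. The same seed stands in 10 mature mouse microRNAs of the RefSeq table.
miR-15a-5p: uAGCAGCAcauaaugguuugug
miR-15b-5p: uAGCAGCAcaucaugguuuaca
miR-16-5p: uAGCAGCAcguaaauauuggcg
miR-195a-5p: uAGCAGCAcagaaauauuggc
miR-322-5p: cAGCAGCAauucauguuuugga

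The miR-15a cells remained far from quiescent cells. Of 13150 genes 9408 were called (71.5%), 4883 higher in miR-15a cells (37.1%) and 4525 lower (34.4%), with limma at an adjusted p under 0.05. Every count of list members below has to be read against these shares. A log2 fold change over 1 was found for 2552 of the higher and 2661 of the lower genes, and one over 5 for 113 and 29. The median over all tested genes was 0.04 and the median standard error 0.14. Libraries of both groups did not overlap, with miR-15a higher, for 43.2% of genes, and with miR-15a lower for 40.5%. For 2130 genes the 95% interval of the difference lay within 0.5 on either side of 0. The distance between libraries over all tested genes, on the log2 scale, was 174.7 to 179.5 from miR-15a to quiescent libraries and 224.9 to 230.7 from activated to quiescent libraries. From control microRNA to quiescent libraries it was 214.3 to 220.2. The miR-15a libraries were 91.4 to 102.7 from activated libraries and 82.4 to 86.4 from control microRNA libraries, and replicates were at most 44.3 apart.

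**Figure D1:**
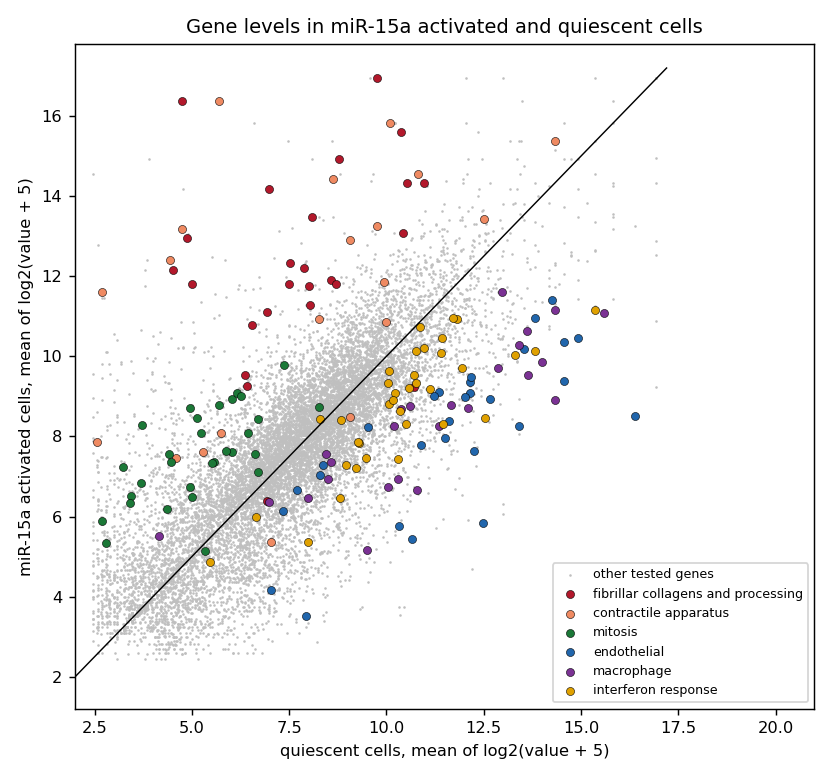
Mean of log2(value + 5) over the 2 quiescent libraries (horizontal axis) and the 2 miR-15a libraries (vertical axis) for each of 13150 tested genes, with members of 6 gene lists in colour and the line of equal level in black. Collagen, contractile and mitotic genes lie above the line with few exceptions, and endothelial, macrophage and interferon genes lie below it with few exceptions.

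What the libraries hold was checked with marker genes. Endothelial, macrophage and hepatocyte transcripts were abundant in the quiescent libraries and lower in the miR-15a libraries. The summed value of 29 endothelial markers was 316821 and 245846 in quiescent libraries a and b, 15614 and 15879 with miR-15a, and 1620 to 3005 in the other 4 libraries. For 25 macrophage markers the sums were 167498 and 192986 in quiescent cells, 15956 and 17498 with miR-15a, and 2439 to 3263 elsewhere. Hepatocyte markers (23 genes) summed to 18867 and 16025 in quiescent cells and to 2006 and 2790 with miR-15a. Mesothelial and portal fibroblast markers (9 genes) summed to 3096 and 2961 in quiescent cells and to 61487 and 61345 with miR-15a. In the other 4 libraries their sums were 61873 to 62082. Most of the miR-15a sums came from Fbln2. Of 8 tested members 5, Thy1 and Fbln2 among them, were higher than in quiescent cells and 3 lower (median log2 fold change 0.90). No marker in these lists was at 0 in both libraries of a group. In bulk RNA fewer cells of a type and less RNA per cell cannot be told apart, and the part of these other cell types in the differences below was not tested. Of the defining stellate markers Lrat, Gfap, Lhx2, Colec10 and Tcf21 have no value in the analysed table. Those measured include Reln, Hgf, Colec11, Vipr1 and Plin2, given below. The 22 measured quiescent stellate markers summed to 37042 and 37210 in quiescent libraries, below the endothelial and macrophage sums there. The lists differ in length and members. Quiescent cells here means the libraries so labelled, whose RNA holds transcripts of several cell types. The libraries also differed in sex chromosome genes. Ddx3y, on the Y chromosome, was at 44 and 40 in quiescent cells and at 1046 and 1006 with miR-15a (log2 fold change 4.46 ± 0.07, adjusted p = 6.3e-09, limma), and all 4 measured Y genes were higher. Xist, made by the inactive X, was at 8724 in both quiescent libraries and at 3373 in both miR-15a libraries, and its difference did not pass (adjusted p = 0.13), though it did in a fit of the compared groups only (adjusted p = 1.05e-05) and without either activated library. Activated and miR-15a libraries differed in these genes too. Ddx3y was at 2606 and 2570 in activated cells, the 4 Y genes were all lower with miR-15a than there, and Xist was at 169 and 21 in activated cells (5.65 higher with miR-15a, adjusted p = 0.0011, limma). With the control microRNA Ddx3y stood at 1282 and 1268 and Xist at 3373 and 5027. A difference between animals and one between cell states cannot be told apart here.

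**Figure D2:**
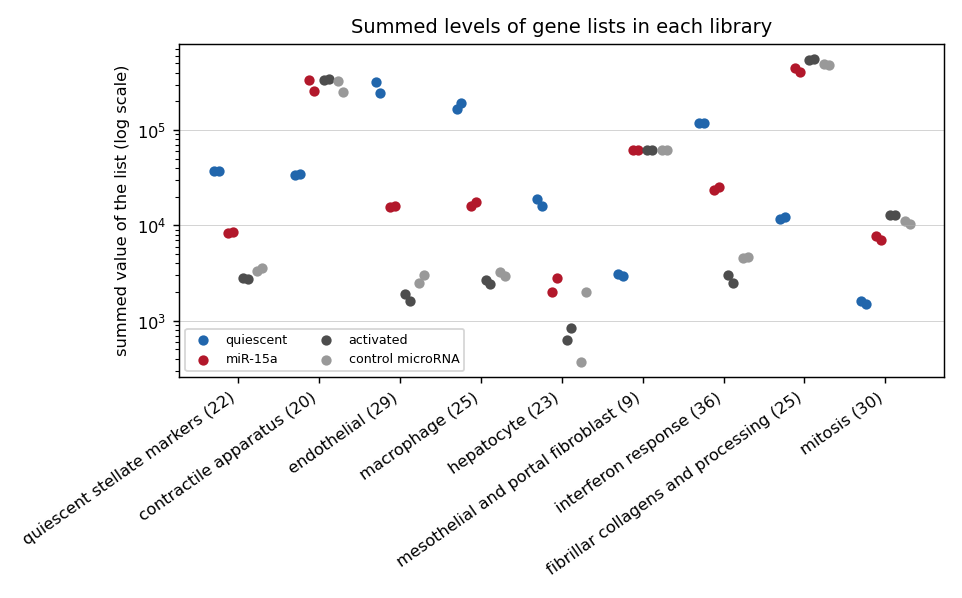
Summed value of the members of each gene list in each of the 8 libraries on a log axis, with the number of genes in brackets and colour giving the group. The 2 miR-15a libraries lie between the quiescent and the activated libraries for the quiescent stellate, endothelial, macrophage, hepatocyte, interferon and mitosis lists, and close to the activated libraries for the contractile and mesothelial lists.

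Fibrillar matrix genes were far above their quiescent level in miR-15a cells. Of 25 collagen and collagen-processing genes 23 were higher, 2 were lower and the median log2 fold change was 4.23, against 0.04 over all genes. Col1a1, a chain of type I collagen, was at 115 and 128 in quiescent cells and at 18677 in both miR-15a libraries (7.21 ± 0.22, adjusted p = 1.4e-07, limma; values after ± are standard errors of the log2 fold change from here on). The miR-15a libraries were at or below both activated libraries, which stood at 18677 and 20504, and far above both quiescent ones. Lox, which cross-links collagen, was at 22 in both quiescent libraries and at 125636 and 58200 with miR-15a, the first of these being the highest value the scale allows (11.63 ± 0.29). Its fold change is therefore limited by the scale, as are those of Col1a2 and Fn1 (7.17 and 7.36), which stood at 125636 in both miR-15a libraries.

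Several collagens were high and yet lower than in activated cells. Col12a1, a collagen that coats fibrils, was at 20 and 30 in quiescent cells, 8202 and 7720 with miR-15a and 20500 and 24099 in activated cells. All 3 groups were apart, with a log2 fold change of 8.07 ± 0.16 against quiescent cells and -1.48 against activated cells (adjusted p = 4.7e-04, limma). Col8a1, a short-chain collagen, stood at 20 and 16 in quiescent cells, 4446 and 4663 with miR-15a and 9821 and 11352 in activated cells (7.64 ± 0.10 and -1.21). Loxl1, a relative of Lox, was at 24 and 31, then 3895 and 3264, then 6464 in both activated libraries (6.79 ± 0.12 and -0.86). Over all genes 38.4% were called between miR-15a and activated cells and 29.9% between miR-15a and control microRNA cells. Over the list 17 of 25 genes were lower with miR-15a than in activated cells (21.6% of all tested genes were) and 18 were lower than with the control microRNA (15.4% of all genes), a count that was 11 without miR-15a library b. The members that were lower than in quiescent cells were Plod1, a collagen lysyl hydroxylase (1677 and 1647 against 613 and 588, -1.46 ± 0.06), and Adamts14, a procollagen protease (-0.55 ± 0.14).

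Elastic fibre and matricellular genes were higher too, 17 of 19, with a median of 3.20. Fbln2, a fibulin of elastic fibres, was at 108 and 78 in quiescent cells and at 58193 in both miR-15a libraries (9.23 ± 0.13). Ltbp2, of the family named latent TGF-beta binding proteins, was at 44 and 10 against 9200 in both (8.41 ± 0.45). Fbn1, fibrillin-1, was at 364 and 397 against 42350 in both (6.78 ± 0.18). The miR-15a replicates of each of these 3 genes were tied on a step of the scale. Ltbp4, a relative of Ltbp2, went the other way, from 8204 in both quiescent libraries to 72 and 53 (-6.94 ± 0.16), and was at 96 and 80 in activated cells. The small proteoglycans Lum and Dcn were the list's members that fell, Lum from 424 and 401 to 218 and 163 (-1.11 ± 0.13) and Dcn from 3263 and 3373 to 2106 and 1856 (-0.74 ± 0.08). Mgp, matrix Gla protein, was at 1 in both quiescent libraries and at 6825 and 7290 with miR-15a (10.20 ± 0.12).

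Basement membrane genes were mixed, 7 higher, 6 lower and 3 without a call among 16, with a median of 0.13. Under another scaling of the libraries the median was 0 and the counts were 6 and 7. Col4a5, a type IV collagen chain, rose from 2 and 1 to 2866 and 2732 (8.76 ± 0.08), and Col15a1 from 3 and 2 to 748 and 740 (6.64 ± 0.15). The commoner chain Col4a2 was lower, at 18677 in both quiescent libraries and 14432 in both miR-15a libraries (-0.37 ± 0.05). Agrn, agrin, fell from 3317 and 3514 to 584 and 700 (-2.41 ± 0.16) and Hspg2, perlecan, from 14432 in both to 6825 and 7290 (-1.03 ± 0.15). Lama4, a laminin chain of vessel walls, was at 1730 and 1772 in quiescent cells, 1215 and 1146 with miR-15a and 302 and 248 in activated cells. It was thus below its quiescent level (-0.57 ± 0.09) and above its activated level (2.09, adjusted p = 6.5e-06, limma), and the difference from its level with the control microRNA, 1094 and 1050, did not pass (adjusted p = 0.31).

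Among 20 matrix proteases and inhibitors 12 were higher, 5 lower and 3 had no call. Timp1, the inhibitor used as a fibrosis marker, was at 18 and 4 in quiescent cells and at 4266 and 6825 with miR-15a (8.55 ± 0.40). Mmp23 was at 4 and 8 against 998 and 896 (6.46 ± 0.18) and Adam12 at 48 and 56 against 1190 and 1068 (4.32 ± 0.09). Both miR-15a libraries were above both quiescent ones for each. The aggrecanases Adamts1 and Adamts4 fell, Adamts1 from 6822 in both libraries to 710 and 728 (-3.24 ± 0.05) and Adamts4 from 1346 and 1420 to 81 and 94 (-3.91 ± 0.17). Mmp13, a collagenase, fell from 560 and 542 to 214 and 183 (-1.45 ± 0.14) and stood above its level of 50 and 65 in activated cells (1.71, adjusted p = 1.1e-04, limma).

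The contractile apparatus was far above its quiescent level. Of 20 genes 18 were higher than in quiescent cells and 2 lower, with a median of 3.18. Against activated cells 12 were lower with miR-15a and 1 was higher, with a median of -0.58. Against the control microRNA 7 were lower and none higher, with a median of -0.02, and 4 were lower without miR-15a library b. Acta2, smooth muscle actin and the standard marker of activation, was at 43 and 51 in quiescent cells and at 125636 and 58193 with miR-15a (10.69 ± 0.42), the same pair of values as with the control microRNA. Cnn1, calponin, was at 1 and 2 in quiescent cells, 3204 and 3048 with miR-15a, 5345 and 5124 in activated cells and 3048 and 2954 with the control microRNA. Its miR-15a libraries were above all quiescent libraries (8.92 ± 0.08), below activated ones (-0.74, adjusted p = 5.8e-04, limma) and the difference from the control microRNA did not pass (adjusted p = 0.64). Myl9, a myosin light chain, stood at 18 and 26 against 9198 in both (8.43 ± 0.12) and Tpm2, a tropomyosin, at 20 and 14 against 5563 and 5345 (7.97 ± 0.12).

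Des, the intermediate filament desmin and a stellate marker in rodents, was one of the members below the quiescent level. It was at 131 and 120 in quiescent cells, 31 and 42 with miR-15a and 56 and 48 in activated cells (-1.66 ± 0.34, adjusted p = 0.003, limma). The quiescent libraries were above all others, and the difference between miR-15a and activated cells did not pass (adjusted p = 0.32). The other such member, Smtn, smoothelin, was at 536 and 530 against 323 and 386 (-0.59 ± 0.15), and its call was lost without miR-15a library a (adjusted p = 0.058). The transcription factor genes behind the contractile program were higher by less: Mkl1, the actin-sensing coactivator, by 1.75 ± 0.17 and Srf, serum response factor, by 0.56 ± 0.10.

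S100a4 and S100a6, calcium-binding proteins of motile mesenchymal cells, were among the largest increases. S100a4 was at 12 and 8 in quiescent cells and at 31224 in both miR-15a libraries (11.04 ± 0.15), and S100a6 at 18 and 28 against 18677 in both (9.40 ± 0.19). Cpe, a prohormone carboxypeptidase, rose from 0 and 4 to 2528 and 3113 (8.71 ± 0.24). The largest fitted increase among the genes named by rule was Rprl3, an RNase P RNA-like gene, at 0 and 1 against 24105 in both (12.10 ± 0.10). It has near-identical copies in the genome, so the split of its reads is uncertain.

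The promoter of Myl9 is shown as the contractile gene with the largest increase whose window holds a CArG box, the binding motif of serum response factor (RefSeq, GRCm38.p6, plus strand, chr2:156775214-156775513). The window runs from 250 bases before to 50 bases after the start, the motif was searched on both strands and the match is in capitals. The box was found in 4 of 21 promoters of the list (19%) and in 1.63% of 32851 promoters of the same length. A match describes letters only, and the windows of Acta2 and Cnn1 held none.
Myl9 promoter: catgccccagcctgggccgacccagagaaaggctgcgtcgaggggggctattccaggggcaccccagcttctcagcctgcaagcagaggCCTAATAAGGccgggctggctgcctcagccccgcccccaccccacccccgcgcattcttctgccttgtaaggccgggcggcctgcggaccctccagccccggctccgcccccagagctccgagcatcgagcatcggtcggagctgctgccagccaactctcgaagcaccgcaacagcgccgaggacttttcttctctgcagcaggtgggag

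Mitotic genes were above the quiescent level in miR-15a cells, 29 of 30, with a median of 2.64 and 1 member, Incenp, without a call (named after its values were seen). Cdc20, which activates the anaphase-promoting complex, was at 6 and 11 in quiescent cells and at 347 and 272 with miR-15a (4.56 ± 0.21). Plk1, a mitotic kinase, was at 1 and 2 in quiescent cells, 47 and 62 with miR-15a and 150 and 112 in activated cells. For Plk1 the miR-15a libraries lay between both groups without overlap (3.19 ± 0.20 against quiescent and -1.19 against activated cells). Mki67, the proliferation antigen, was at 321 and 289, then 475 and 370, then 870 and 881, which is a small excess over quiescent cells (0.46 ± 0.12, adjusted p = 0.0094, limma) that did not pass without quiescent library b (adjusted p = 0.067). Against activated cells 22 of the 30 genes were lower with miR-15a, with a median of -0.82, a count that was 14 without activated library b. Against the control microRNA 15 were lower and the median was -0.54.

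DNA replication genes moved less and less evenly, 16 of 25 higher, 3 lower and 6 without a call (median 0.69). Rrm2, a subunit of the enzyme that makes deoxynucleotides, rose from 64 and 56 to 498 and 504 (2.96 ± 0.10). Pcna, the sliding clamp of DNA polymerase, fell from 1082 and 1244 to 624 and 660 (-0.85 ± 0.13), and Mcm3, part of the replicative helicase, from 530 and 558 to 342 and 357 (-0.63 ± 0.07). The third gene that fell, Cdt1, lost its call when any of 3 libraries was left out (adjusted p 0.055 to 0.089).

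The promoter of Cdc20 is printed as that of the mitotic gene with the largest increase (RefSeq, GRCm38.p6, minus strand, chr4:118437294-118437593). Capitals mark the element TTTGAA of cell cycle genes and CCAAT boxes, each searched on both strands. TTTGAA was in 21 of 27 promoters of the mitosis list (77.8%) and in 17.9% of all promoters, and CCAAT in 85.2% and 37.4%.
Cdc20 promoter: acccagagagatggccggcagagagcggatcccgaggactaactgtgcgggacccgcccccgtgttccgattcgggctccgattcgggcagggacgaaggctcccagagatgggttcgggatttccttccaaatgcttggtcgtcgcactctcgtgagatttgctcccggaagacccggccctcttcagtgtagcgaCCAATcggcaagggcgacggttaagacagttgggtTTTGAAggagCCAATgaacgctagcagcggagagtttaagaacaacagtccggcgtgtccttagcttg

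**Figure D3:**
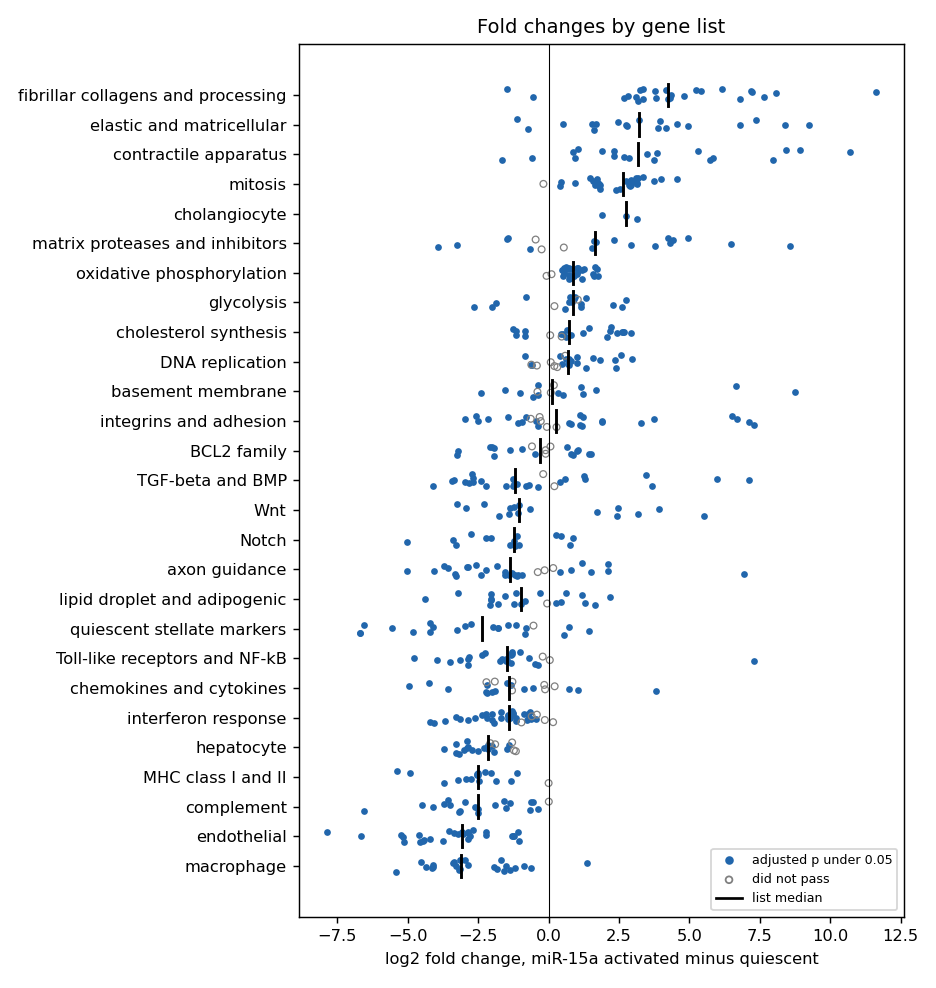
Log2 fold change of miR-15a against quiescent cells (horizontal axis) for the tested members of 27 gene lists, with filled points for adjusted p under 0.05, open points for the rest and a bar at each list's median. The medians run from 4.23 for fibrillar collagens to -3.10 for macrophage markers.

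Genes that mark the quiescent state were mostly still low. Of 22 measured quiescent stellate genes 18 were lower in miR-15a than in quiescent cells, 3 higher and 1 had no call, with a median of -2.36. Reln, a secreted glycoprotein made by stellate cells, was at 7724 and 8724 in quiescent cells, 67 and 82 with miR-15a, 14 and 22 in activated cells and 11 and 6 with the control microRNA. All quiescent libraries were far above the miR-15a libraries (-6.70 ± 0.23), which were in turn above the activated ones (1.80, adjusted p = 0.0011, limma). Vipr1, a receptor of vasoactive intestinal peptide, was at 1472 and 1308 against 8 and 9 (-6.69 ± 0.20), and Colec11, a collectin, at 1208 and 1332 against 8 and 9 (-6.56 ± 0.25). For Vipr1 the difference from activated cells did not pass (adjusted p = 0.051). For Colec11 it passed (0.96, adjusted p = 0.022), but not without activated library a or either miR-15a library (adjusted p 0.068 to 0.111).

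Hgf, the hepatocyte growth factor that quiescent stellate cells supply, was at 966 and 945 in quiescent cells, 340 and 358 with miR-15a and 166 and 148 in activated cells (-1.44 ± 0.09 against quiescent and 1.13 against activated cells). Plin2, which coats lipid droplets, was at 3446 and 3514, then 1508 and 1573, then 703 and 685 (-1.17 ± 0.05 and 1.15). Both genes lay between quiescent and activated cells without overlap. Among the genes that were higher in miR-15a than in quiescent cells were Hand2, a mesenchymal transcription factor (35 and 46 against 130 and 105, 1.43 ± 0.17), and Cygb, cytoglobin (280 and 272 against 478 and 442, 0.73 ± 0.10). Against activated cells 10 of the 22 were higher with miR-15a and 2 lower, where 16.8% and 21.6% of all genes were. The summed value of the list was 37042 and 37210 in quiescent cells, 8249 and 8559 with miR-15a and 2839 and 2734 in activated cells.

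Of 14 retinoid genes 6 were higher and 8 lower than in quiescent cells. Cyp26b1, which degrades retinoic acid, fell from 2991 and 2670 to 42 and 76 (-5.52 ± 0.25), and the receptor gene Rarb from 298 and 326 to 54 and 60 (-2.35 ± 0.14). Aldh1a3, which makes retinoic acid, rose from 20 and 23 to 808 and 820 (4.95 ± 0.09). Of 21 lipid droplet and adipogenic genes 13 were lower and 7 higher (median -0.97). Pparg, the adipogenic transcription factor, was higher and not lower with miR-15a, at 53 and 63 in quiescent cells, 184 and 198 with miR-15a and 378 and 357 in activated cells (1.64 ± 0.13 against quiescent and -0.93 against activated cells). The lipases Pnpla2 and Lipe were lower, Pnpla2 at 307 and 306 against 28 and 29 (-3.22 ± 0.24) and Lipe by -2.06. Cd36, a fatty acid receptor also of endothelium and macrophages, fell from 58200 in both to 2670 and 2866 (-4.39 ± 0.19). Plin4, another droplet coat gene, went from 26 and 18 to 100 and 132 (2.17 ± 0.19), and Fasn, fatty acid synthase, rose by 1.28 ± 0.14.

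**Figure D4:**
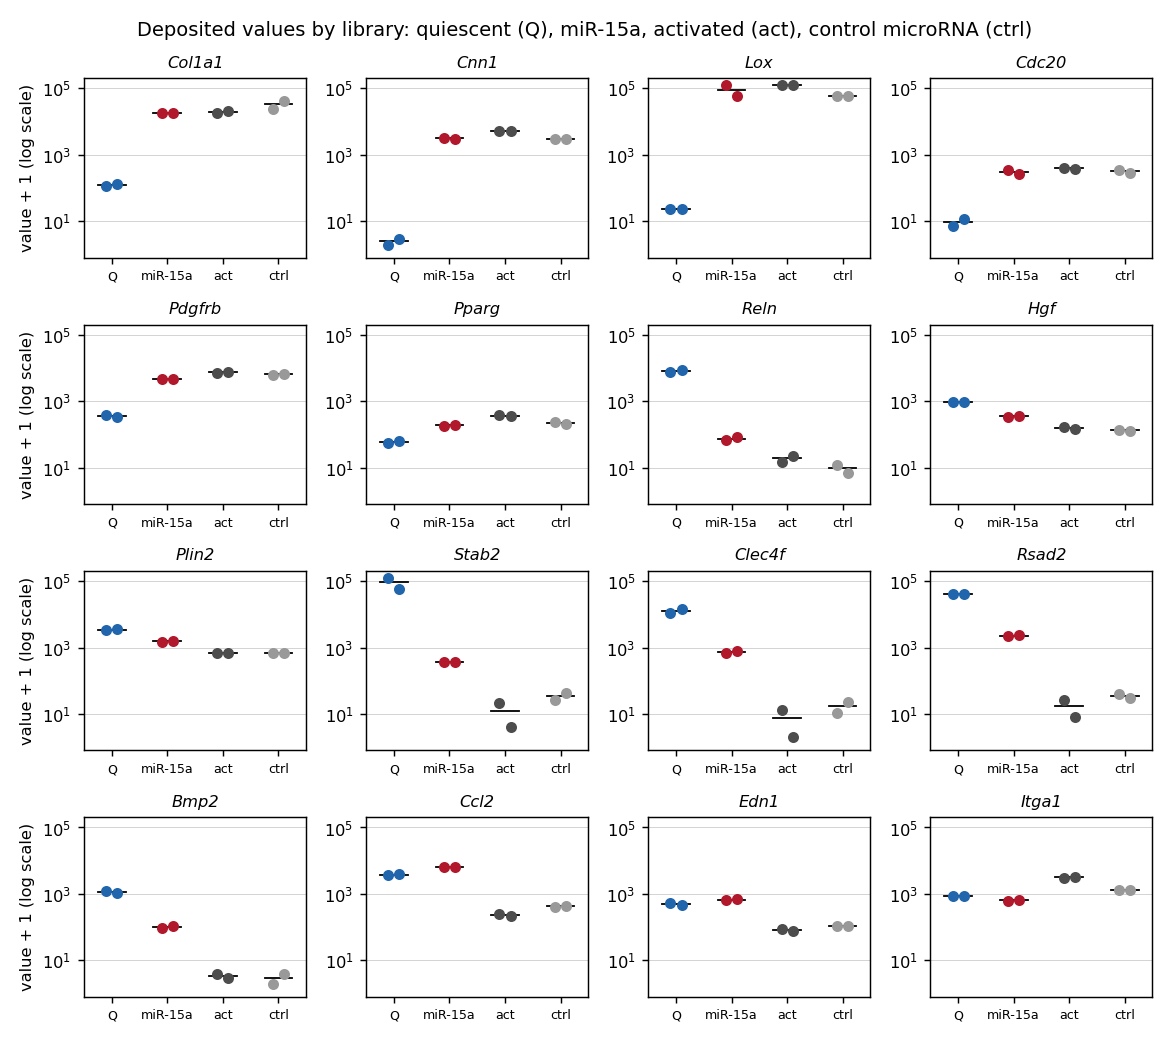
Deposited value plus 1 on a log axis for 16 genes in the 8 libraries, with points for libraries and bars for group means, in quiescent cells (Q), miR-15a cells, activated cells (act) and control microRNA cells (ctrl). Col1a1, Cnn1 and Lox with miR-15a stand far above the quiescent cells, Hgf, Plin2 and Pparg between both states, and Ccl2 and Edn1 above every other library.

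Receptors and ligands split by member within the growth factor pathways. In the TGF-beta and BMP list 8 of 28 genes were higher and 18 lower (median -1.18). The ligand gene Tgfb3 was at 54 and 34 in quiescent cells, 3048 and 2992 with miR-15a and 6464 in both activated libraries (5.98 ± 0.16), and Tgfb2 at 29 and 16, then 334 in both, then 1056 and 1155 (3.67 ± 0.20). Both ligands lay between the states, and the difference of Tgfb3 from the control microRNA did not pass (adjusted p = 0.49). Bmp2, a ligand of sinusoidal endothelium, fell from 1191 and 1086 to 96 and 104 (-3.44 ± 0.18) and was at 3 and 2 in activated cells. The signal carrier Smad3 was lower at 337 and 307 against 712 and 697 (-1.12 ± 0.08).

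In the PDGF, VEGF and FGF list 6 of 22 genes were higher and 14 lower. Pdgfrb, the receptor through which PDGF drives stellate cells, was at 386 and 335 in quiescent cells, 4665 and 4776 with miR-15a and 7286 and 7720 in activated cells (3.70 ± 0.09 against quiescent and -0.67 against activated cells). Figf, which encodes VEGF-D, rose from 2 in both to 205 and 147 (4.67 ± 0.19), and Vegfa from 218 and 176 to 1715 and 1762 (3.12 ± 0.11). The receptors of those ligands fell: Kdr from 10504 and 11352 to 299 and 310 (-5.14 ± 0.46) and Flt4 from 4776 and 5027 to 201 and 190 (-4.61 ± 0.34). Both receptors are endothelial, and the endothelial marker sum moved in the same libraries as given above.

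Among 13 IGF genes 4 were higher and 6 lower. Igfbp6, an IGF-II binding protein, rose from 10 and 6 to 1694 and 1506 (6.96 ± 0.16), and Igfbp4 fell from 7290 and 6290 to 370 and 366 (-4.18 ± 0.11). Igfbp2 was at 67 and 49, then 585 and 804 with miR-15a, against 4088 and 4266 in activated cells (3.47 ± 0.17 and -2.60).

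Wnt and Notch genes also went both ways. Of 16 Wnt genes 6 were higher and 10 lower. Sfrp1, a secreted Wnt inhibitor, was at 0 and 1 in quiescent cells, 272 and 222 with miR-15a, 64 and 38 in activated cells and 630 and 584 with the control microRNA (5.52 ± 0.24 against quiescent cells). Wnt5a rose from 6 and 9 to 185 and 176 (3.90 ± 0.14), and the receptor Fzd4 fell from 1254 and 1118 to 155 and 147 (-2.93 ± 0.11). Of 15 Notch genes 11 were lower and 4 higher (2 under another scaling of the libraries, and 2 without quiescent library a or miR-15a library a). Dll1, a Notch ligand, fell from 320 and 346 to 5 and 6 (-5.01 ± 0.18) and Notch1 from 4547 and 4368 to 418 and 432 (-3.38 ± 0.13). Notch3, the receptor of mural cells, was above quiescent cells at 158 in both miR-15a libraries against 84 and 85 (0.86 ± 0.14), and well below its activated level of 596 and 696 (-1.99, adjusted p = 4e-05, limma).

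Of 26 Hippo pathway genes and YAP targets 13 were higher and 11 lower. Among the targets, Ankrd1 rose from 327 and 323 to 11355 and 10507 (5.05 ± 0.11), Ctgf from 2106 and 2132 to 18666 and 20500 (3.20 ± 0.11) and Amotl2 by 2.76 ± 0.10. The coactivator genes themselves were lower, Wwtr1 (TAZ) from 9824 in both to 2700 and 2422 (-1.94 ± 0.07) and Yap1 from 1936 and 1560 to 1050 and 1234 (-0.61 ± 0.11). The partner Tead1 rose from 533 and 504 to 1590 and 1462 (1.55 ± 0.13).

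Adhesion genes changed in both directions, 14 of 29 higher, 10 lower and 5 without a call. Itga11, the collagen receptor chain of myofibroblasts, was at 4 in both quiescent libraries, 916 and 940 with miR-15a, and 3514 and 3812 in activated cells (6.70 ± 0.10 and -1.97). Itga1, another collagen receptor chain, was at 856 and 880 in quiescent cells, 606 and 678 with miR-15a, 3047 and 3317 in activated cells and 1308 and 1294 with the control microRNA. For Itga1 the miR-15a libraries were the lowest of all 8, below quiescent (-0.43 ± 0.07, adjusted p = 0.001) and below activated cells (-2.30, adjusted p = 1.4e-06, limma). Cdh11, a fibroblast cadherin, rose from 10 and 12 to 1486 and 1431 (6.52 ± 0.08) and Ncam1 from 2 in both to 1138 and 1056 (7.30 ± 0.07). Thy1, a fibroblast surface protein also in the mesothelial and portal fibroblast list, rose from 0 and 1 to 762 and 738 (7.11 ± 0.11). Itga9 fell from 6000 and 6288 to 786 and 760 (-2.98 ± 0.06), and Itga8, an integrin chain of stellate cells, from 743 and 708 to 110 and 124 (-2.58 ± 0.11).

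Transcription factor genes were lower in 16 of 28 cases and higher in 12. Prrx1, of mesenchymal cells, rose from 15 in both to 663 and 646 (5.04 ± 0.07). Gata4, known to keep stellate cells from fibrosis and also made by sinusoidal endothelium, was at 2954 and 2866 in quiescent cells, 228 and 262 with miR-15a and 58 and 44 in activated cells (-3.55 ± 0.15 and 2.17). Ets1 fell from 20504 in both to 2422 and 2606 (-3.03 ± 0.07). Of 30 axon guidance genes 20 were lower and 7 higher, among them Sema7a, a membrane semaphorin, up from 4 and 1 to 916 and 866 (6.93 ± 0.19), and Plxnc1, its receptor, down from 5123 and 5027 to 166 and 134 (-5.04 ± 0.18).

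Vasoactive genes were lower in 13 of 20 cases. Nos3, the endothelial nitric oxide synthase, fell from 1222 and 1353 to 46 and 52 (-4.58 ± 0.43), and Agtr1a, the angiotensin receptor, from 326 and 322 to 10 and 14 (-4.29 ± 0.38). Edn1, which encodes endothelin-1, was at 524 and 478 in quiescent cells, 634 and 722 with miR-15a, 88 and 75 in activated cells and 110 in both control libraries. Its miR-15a libraries were the highest of all 8 (0.43 ± 0.11 against quiescent, 2.98 against activated cells), though the call against quiescent cells was lost without quiescent library b (adjusted p = 0.063) or miR-15a library b (adjusted p = 0.07). Npr3, the clearance receptor of natriuretic peptides, rose from 198 and 187 to 1030 and 1138 (2.46 ± 0.07).

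Endothelial and macrophage markers were below quiescent and above activated levels. All 29 tested endothelial genes were lower with miR-15a than in quiescent cells (median -3.09), and 24 of 25 macrophage genes were (median -3.10), with Cx3cr1 the exception. Stab2, a scavenger receptor of sinusoids, was at 125636 and 58193 in quiescent cells, 364 and 356 with miR-15a and 20 and 3 in activated cells (-7.87 ± 0.55 and 4.69). Clec4f, of Kupffer cells, was at 11355 and 14432, then 672 and 813, then 12 and 1 (-4.11 ± 0.47 and 6.20), and Csf1r, the macrophage growth factor receptor, at 20500 in both, then 510 and 450, then 149 in both (-5.41 ± 0.10 and 1.65). The miR-15a libraries overlapped neither group for any of the 3. Against activated cells 26 of 29 endothelial genes were higher with miR-15a, with a median of 4.44, and 24 of 25 macrophage genes. Aqp1, a water channel, and Dnase1l3 and Clec4g, of sinusoidal endothelium or macrophages, were among the 12 largest decreases (-7.72 ± 0.24, -7.51 ± 0.26 and -6.67 ± 0.25), Aqp1 from the highest value of the scale in both quiescent libraries to 515 and 682.

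Hepatocyte genes were lower in 18 of 23 cases and 5 had no call (median -2.16). Alb, albumin, was at 8724 and 7286 against 744 and 1056 (-3.16 ± 0.96, adjusted p = 0.019), a call lost without any one of the quiescent or miR-15a libraries (adjusted p 0.057 to 0.092). The keratin gene Krt18 was placed in the cholangiocyte list but is not particular to that cell type, and only 4 of the list's 11 genes were measured. Krt18 was at 20 and 0 in quiescent cells, 86 and 101 with miR-15a, 3 and 1 in activated cells and 13 and 34 with the control microRNA (3.13 ± 0.70).

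Interferon response genes mostly lay between their quiescent and their activated levels. Of 36 genes 31 were lower than in quiescent cells, none was higher and 5 had no call, with a median of -1.40. Rsad2, the antiviral enzyme viperin, was at 42350 in both quiescent libraries, 2224 and 2360 with miR-15a, 26 and 7 in activated cells and 39 and 30 with the control microRNA. It was the member with the largest difference from quiescent cells (-4.21 ± 0.37), and it was 6.89 above activated cells (adjusted p = 1.5e-05, limma). Oasl1 was at 5343 and 6462, then 343 and 350, then 4 and 2 (-4.07 ± 0.16 and 5.47). The members without a call were Ifit3, I830012O16Rik, Isg20, Bst2 and Xaf1, named after their values were seen. Ifit3 was at 1976 and 1744 against 1508 and 1896. Bst2 was at 2732 in both quiescent libraries against 1296 and 1508 (-0.96 ± 0.51), so a missing call does not mean an unchanged level. Of these members only Xaf1 had a positive log2 fold change (0.16). Against activated cells 35 of 36 were higher, with a median of 3.24 (16.8% of all genes were higher), and 35 were higher than with the control microRNA, with a median of 2.54 (14.4% of all genes). Macrophage and endothelial marker sums moved in the same direction in the same libraries, and their part was not tested.

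The promoter of Rsad2 is shown as the interferon gene with the largest decrease (RefSeq, GRCm38.p6, minus strand, chr12:26456403-26456702). The interferon-stimulated response element was searched on both strands as GAAA, any 2 bases and GAAA again, and its match on the other strand is in capitals. It was in 17 of 32 promoters of the list (53.1%) and in 3.44% of all promoters, and the window of Oasl1 held none.
Rsad2 promoter: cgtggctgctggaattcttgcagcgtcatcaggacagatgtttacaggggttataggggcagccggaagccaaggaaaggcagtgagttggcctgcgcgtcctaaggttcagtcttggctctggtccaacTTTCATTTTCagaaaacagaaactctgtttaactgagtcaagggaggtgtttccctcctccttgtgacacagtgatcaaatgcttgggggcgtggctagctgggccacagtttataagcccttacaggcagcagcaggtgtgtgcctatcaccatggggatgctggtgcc

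Antigen presentation genes were lower in 16 of 17 cases (median -2.50), and 16 of 17 were above activated cells. The MHC class II gene H2-Aa was at 3812 and 3994 in quiescent cells, 85 and 91 with miR-15a and 0 and 2 in activated cells (-5.39 ± 0.26 and 3.97). Nlrc5, which switches on class I genes, was at 1396 and 1526, then 104 and 111, then 4 and 5 (-3.70 ± 0.18). Of 21 complement genes 20 were lower, including Cfp, properdin, from 7724 and 7286 to 566 and 704 (-3.56 ± 0.13).

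Chemokine and cytokine genes were lower in 12 of 22 cases, higher in 3 and without a call in 7. Ccl2, the monocyte chemoattractant, was one of those that were higher. It was at 3682 and 3994 in quiescent cells, 6288 and 6462 with miR-15a, 241 and 218 in activated cells and 414 and 444 with the control microRNA. The miR-15a libraries were the highest of all 8 (0.73 ± 0.07, adjusted p = 6.2e-05 against quiescent cells, and 4.77 above activated cells, adjusted p = 2.9e-07, limma). Il6, interleukin 6, rose from 318 and 298 to 630 and 648 (1.04 ± 0.08) and its difference from activated cells did not pass (adjusted p = 0.1). Tnf fell from 771 and 748 to 24 and 16 (-4.95 ± 0.27) and Cxcl10, an interferon-induced chemokine, from 5345 and 4266 to 384 and 406 (-3.58 ± 0.38). In the list of Toll-like receptor and NF-kB genes 23 of 26 were lower. The exception was Ptgs2, cyclooxygenase-2, which rose from 114 and 128 to 20500 and 18666 (7.28 ± 0.12).

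Metabolic lists differed in how evenly their members moved. Of 28 oxidative phosphorylation genes 26 were higher and none lower, with a median of 0.88 and a range of -0.07 to 1.75. Ndufa4, a respiratory chain subunit, was at 632 and 598 in quiescent cells, 2132 and 2022 with miR-15a and 1634 and 1590 in activated cells (1.75 ± 0.06). Of 18 glycolysis genes 12 were higher and 4 lower, with Tpi1 up from 703 and 710 to 4546 and 5027 (2.75 ± 0.07) and Pfkfb3, a switch of glycolytic rate, down from 812 and 795 to 107 and 142 (-2.66 ± 0.17). Cholesterol synthesis genes were higher in 15 of 22 cases. Insig1, which holds the pathway back, fell from 1420 and 1462 to 652 and 640 (-1.15 ± 0.06). Of 19 metallothionein and NRF2 genes 11 were lower. Hmox1, heme oxygenase, fell from 31224 in both to 2385 and 3203 (-3.50 ± 0.14), while Nqo1 rose from 422 and 418 to 757 and 808 (0.89 ± 0.08) and stood above activated cells at 422 and 394 (0.93).

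Genes known as targets of the miR-15 family were not lower as a group than in quiescent cells. Of 25 tested 11 were higher, 7 lower and 7 had no call, with a median of 0.07, where 37.1% and 34.4% of all genes were higher and lower. Under another scaling of the libraries 9 were higher and 9 lower, with a median of -0.06. Against the control microRNA 9 of the 25 were lower and 2 higher, with a median of -0.18, where 15.4% and 14.4% of all genes were. The count of lower genes was 3 in a fit of the compared groups only, 2 without miR-15a library a or control library b, and 0 without miR-15a library b. Against activated cells 6 were higher and 4 lower. Bcl2, which blocks apoptosis, was at 86 and 90 in quiescent cells and at 87 and 98 with miR-15a, and the difference of 0.07 ± 0.15 did not pass (adjusted p = 0.72, limma). Ccne1, cyclin E1, was at 12 and 14 against 141 in both (3.02 ± 0.12), and Ccnd1, cyclin D1, at 1162 and 1268 against 3168 and 3204 (1.39 ± 0.06). The miR-15a libraries were above all quiescent ones for both cyclins, and Ccnd1 was also above activated cells at 2386 and 2276 (0.45, adjusted p = 0.0013). Ccnd2 rose from 1440 and 1431 to 4899 and 4663 (1.73 ± 0.17). Ucp2, a mitochondrial carrier, was the list's largest decrease, from 826 and 752 to 130 and 85 (-2.85 ± 0.18), followed by Jun (-2.14 ± 0.08). Dleu2, the host transcript of miR-15a and miR-16, was at 151 and 160 in quiescent cells and at 76 and 84 with miR-15a (-0.92 ± 0.13), and at 75 and 83 in activated cells.

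The sites below lie in the last exon, in the 3′ UTR, of 5 such targets (GENCODE M21, GRCm38). They show what miR-15a could pair with in genes that were above or at their quiescent level. Wee1 was searched as well and held 2 sites, which are not shown. Whether miR-15a acts at any of these sites was not tested. Capitals mark TGCTGCT, the complement of bases 2 to 8. They are at chr7:38098013-38098042, minus strand (Ccne1), chr6:127128531-127128560, minus strand (Ccnd2), chr17:46018580-46018609, minus strand (Vegfa), chr1:106540788-106540817, minus strand (Bcl2) and chr7:144930384-144930413, minus strand (Ccnd1).
Ccne1 site: ttattttgtaagTGCTGCTatgtctatcaa
Ccnd2 site: tgtttcacggtgTGCTGCTattttagaaac
Vegfa site: ttttcttatatcTGCTGCTaaatcgccaag
Bcl2 site: taagaaaccctgTGCTGCTatcctgccaag
Ccnd1 site: tgcatgccaccaTGCTGCTggcccgggggg

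Over all genes the site was described in the longest annotated 3′ UTR, which 12357 tested genes had. Of 3019 genes with TGCTGCT 35.5% were higher and 40.4% lower than in quiescent cells, with a median of -0.08. Of 9338 without it 39.6% were higher and 32.9% lower, with a median of 0.07. Genes with longer 3′ UTRs hold the site more often and were lower more often. Within the longest of 3 length classes 30.7% of 1854 genes with a site were higher and 44.5% lower, beside 31.3% and 42.2% of 2264 genes without one. In the shortest class the medians were 0.29 with and 0.26 without a site, and in the middle class 0.09 and 0.05. Against the control microRNA the medians over all classes were -0.11 with and -0.05 without a site. By class they were -0.15 and -0.1 (longest), -0.06 and -0.06 (middle) and 0.03 and 0.02 (shortest). No test was made of these shares or medians.

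Genes of apoptosis and the cell cycle brakes had no common direction. In the BCL2 family 7 of 20 genes were higher and 9 lower. Bcl2l11, which encodes the death inducer BIM, fell from 1372 and 1346 to 134 and 141 (-3.26 ± 0.21), and Mcl1, a survival protein, from 6825 and 6290 to 1648 and 1614 (-2.0 ± 0.07). Bok rose from 1772 and 1824 to 5029 and 5124 (1.50 ± 0.08) and was above activated cells at 3895 and 3448 (0.47). Of 17 p53 targets and cyclin-dependent kinase inhibitors 6 were higher and 7 lower. Ccng1, cyclin G1, rose from 1138 and 1260 to 58200 in both (5.60 ± 0.30), Trp53 fell from 435 and 374 to 145 and 120 (-1.58 ± 0.13) and the inhibitor gene Cdkn1c fell from 111 and 134 to 31 and 16 (-2.21 ± 0.29). Of 15 genes of the microRNA machinery 5 were higher and 9 lower, with a median of -0.58.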

How the data were processed

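The deposited table holds 1 value per gene and library, and the submitters' processing notes name STAR, Subread, featureCounts and the build mm10 without versions. The deposited values were treated as a normalized score: all 8 libraries share the same 910 distinct whole numbers, 10 genes per library stand at the maximum of 125636, and totals run from 10193036 to 10234768. The whole-series description calls the values quantile-normalized scores and not raw counts. Further detail of that step is not given in the sources used here. Depth is unknown, high values lie on shared steps, and genes at the maximum cannot differ there.

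The test used limma 3.58.1 (R 4.3.3) on log2(value + 5) for genes reaching 10 in 2 or more libraries, with 4 group means over all 8 libraries, 4 residual degrees of freedom, a variance trend and Benjamini-Hochberg adjustment over all tested genes. Calls needed an adjusted p below 0.05. Log2 fold changes of low genes are understated. The procedure was tested on simulated data in which only a small part of the genes changed. Those data do not cover a comparison in which 71.5% of genes were called.

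The members and the 42 gene lists (881 of 1035 entries measured, 12 through an older symbol) were chosen with earlier results of these data known. Named genes were the 12 largest increases and 12 largest decreases among calls whose higher group mean reached 100, up to 6 members per list, members against their list and a fixed set; some of these are not reported here. Alternatives covered the pseudocount, filter, scaling, libraries in the fit, variance prior, replicate block, a fold limit and each library left out.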

Additional observations from a re-analysis of the deposited data

How the results depend on the processing

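Against quiescent cells the counts of 4883 higher and 4525 lower genes stayed within 1.5 times under every alternative but a required log2 fold change over 1 (2552 and 2661). Leaving out 1 library gave 4483 to 4880 higher and 3897 to 4578 lower; a group left with 1 library is then assumed to vary like the others. With the replicate block they were 4853 and 4514 against quiescent cells, 2144 and 2599 against activated cells, and 1840 and 1936 against the control microRNA. The letters a and b did not pair the libraries (correlation of their deviations -0.067 to 0.087).

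Median-ratio scaling moved the median of all genes by -0.12 against quiescent and 0.14 against activated cells. The calls were then 4375 and 5052 against quiescent cells, 3111 and 1620 against activated cells (main values 2204 and 2841), and 2311 and 1585 against the control microRNA (1897 and 2029). Directions against activated cells for small changes thus depend on scaling. With a fold limit the counts were 826 and 351 against activated cells and 679 and 219 against the control microRNA, and the latter were 1240 and 1056 in a fit of the compared groups only. Without 1 library the counts against activated cells were 1526 to 2281 higher and 1129 to 2858 lower, the lowest without activated library b. Those against the control microRNA were 1291 to 1775 and 1065 to 1922, the lowest without miR-15a library b and control library b. The cause of these shifts was not tested.

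None of the 374 named genes called against quiescent cells reversed. Calls lost were 3 with no filter, 7 with median-ratio scaling, 4 with the compared groups only, 5 with no variance trend, 0 with the block and up to 18 without 1 library.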

Other observations

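In the comparison of miR-15a with quiescent cells 9 gene families were also taken by symbol, chosen after values of the table had been seen. The 2 largest were mixed: of 200 solute carrier genes 59 were higher and 106 lower, and of 319 Zfp zinc finger genes 85 were higher and 69 lower. The S100, keratin and claudin families had 6, 1 and 4 tested members. Of 80 cytosolic ribosomal protein genes 71 were higher with miR-15a, 1 was lower and 8 had no call, with a median log2 fold change of 1.53, where 37.1% of all tested genes were higher. Rps15a, of the small subunit, was at 2991 and 2954 in quiescent libraries a and b, 18666 and 24099 with miR-15a and 10504 and 9821 in activated cells (log2 fold change 2.83). Of 77 mitochondrial ribosomal protein genes 66 were higher and none was lower (median 0.95), and under another scaling of the libraries 62 were higher and 1 lower. Many ribosomal protein genes have near-identical pseudogenes, so the share of reads given to each is uncertain. Of 38 proteasome subunit genes 27 were higher and 4 lower. Psmb9 and Psmb8, subunits of the interferon-induced immunoproteasome, were the ones with the largest decreases, Psmb9 at 236 and 235 against 28 and 34 and 1 and 2 in activated cells, and Psmb8 at 1010 and 1168 against 266 and 332 and 5 and 9.

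Of 23 immediate early genes, which respond within minutes to stimulation and to cell isolation, 21 were lower with miR-15a and none higher (median -1.44). Fosb was at 1380 and 1244 in quiescent cells, 10 and 4 with miR-15a and 14 and 12 in activated cells (-6.82). Fos was at 1086 and 1050, then 73 and 74, then 26 and 44 (-3.77), Egr1 at 771 and 725, then 53 and 49, then 92 and 93 (-3.75), and Socs3 at 3894 and 3374, then 192 and 196, then 125 and 88 (-4.19). For these 4 genes both quiescent libraries were above all 6 others. How the cells were isolated is not given in the sources used here, and its part in these values was not tested.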
